A study of Homo sapiens with 6 samples.

Results

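Iron handling and lipid peroxidation were followed through 10 genes in A549 cells made senescent with alisertib, with and without salinomycin. The genes were TFRC, SLC11A2, SLC40A1, FTH1, FTL, NCOA4, HMOX1, ACSL4, LPCAT3 and AIFM2. They were taken as a list of genes with these functions, and all 10 were found among the 16670 genes of the table. A549 is an established line of human non-small cell lung cancer that carries a mutated KEAP1, so that the antioxidant transcription factor NRF2 is active in it without stimulation. Every library came from cells exposed for 1 week to alisertib, which blocks Aurora A, a kinase needed for mitosis, and which was given to induce senescence, a lasting arrest of division. The untreated group (3 biological replicates) had alisertib only, and the salinomycin group (3 biological replicates) was given 2.5 µM salinomycin for 48 h before its RNA was taken. Salinomycin is an ionophore of the polyether class that binds potassium and sodium and takes them through membranes, and it has also been studied for its effects on lysosomal iron in cancer cells. No libraries of A549 cells without alisertib were analysed here, so the values compare 2 states of cells that had all been exposed to it.

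Cells take up iron bound to transferrin through the transferrin receptor, carry it out of endosomes, store it in ferritin and release the surplus through ferroportin. Ferroptosis is a form of cell death in which iron drives the peroxidation of polyunsaturated phospholipids. Acyl-CoA synthetases and lysophospholipid acyltransferases build such phospholipids, and glutathione peroxidase 4 and the coenzyme Q reductase encoded by AIFM2 limit their oxidation. Iron-regulatory proteins, encoded by ACO1 and IREB2, bind hairpins called iron-responsive elements when iron is scarce. Bound near the start of a message they hold back its translation, and bound in its 3′ untranslated region (UTR) they protect it from decay, so that messages of this kind need not change in amount alike.

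The hairpin core was searched in the 10 genes because it joins uptake, export and storage. The search asked for a C, 5 bases, the loop letters CAGTG with any base but G after them, and 5 bases that pair with the first 5 (G with T allowed). In GENCODE release 29 transcripts (GRCh38), 4 of the 10 genes held it, all in a UTR, whereas 0.478% of 19677 protein-coding genes did, with 1 transcript searched per gene. Each sequence below is 29 bases, 5′ to 3′ on the coding strand, with the 6 loop bases in capitals.
TFRC, 3′ UTR, chr3:196050979-196051007, minus strand: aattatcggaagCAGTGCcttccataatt
TFRC, 3′ UTR, chr3:196050575-196050603, minus strand: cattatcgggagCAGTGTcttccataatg
TFRC, 3′ UTR, chr3:196050510-196050538, minus strand: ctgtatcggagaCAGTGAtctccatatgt
TFRC, 3′ UTR, chr3:196050463-196050491, minus strand: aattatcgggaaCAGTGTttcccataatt
SLC40A1, 5′ UTR, chr2:189580661-189580689, minus strand: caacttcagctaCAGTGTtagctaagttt
FTH1, 5′ UTR, chr11:61967574-61967602, minus strand: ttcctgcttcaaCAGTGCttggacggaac
FTL, 5′ UTR, chr19:48965335-48965363, plus strand: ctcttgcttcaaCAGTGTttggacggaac
TFRC thus held 4 matches after its coding sequence, and SLC40A1, FTH1 and FTL held 1 each before theirs. A match describes letters only. SLC11A2, some of whose messages are known to carry an element with an irregular stem, gave no match to this strict form.

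With salinomycin the 2 uptake genes TFRC and SLC11A2 rose, and the exporter gene SLC40A1 fell 5.76-fold. HMOX1 fell 7.89-fold, LPCAT3 8.53-fold, AIFM2 1.95-fold and NCOA4 1.51-fold. FTH1, FTL and ACSL4 did not pass the test. In all 2 of the 10 rose, 5 fell and 3 did not pass (limma, Benjamini-Hochberg adjusted p under 0.05 over 13088 genes). Of all tested genes 81.9% passed, 41.6% rising and 40.2% falling, so the members' share of calls was not above the background. The 5451 rises and 5266 falls over all genes became 6461 and 4353 with library size alone. The members' median log2 change was -0.37, against 0.02 for all genes. All 10 passed the filter on low values. At least 4-fold falls were found for 3 of the 10, and for 7.14% of all tested genes.

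Values are given in normalised units, which are the deposited values corrected for library composition, and changes are differences of log2(units + 1). The deposited totals lay between 16270249 and 16382904 per library. Reads estimated from their rounding steps ranged from 13539959 to 19641149, and every member had at least 458 such reads over each group of 3. Mitochondrially encoded genes made up 3.37% to 3.72% of values in untreated and 0.289% to 0.351% in salinomycin libraries. When these genes were left out of the scaling factors, the median change of all tested genes went from 0.022 to 0.019, that of TFRC was 0.68 and that of LPCAT3 -3.10. Without the correction for composition the median change of all tested genes was higher by 0.19, so that changes near this size are relative to the scaling. Of 7 epithelial markers 6 had values, and their sum was 210313 to 238053 units in untreated and 61088 to 70542 in salinomycin libraries, with KRT19 rising and the other 5 falling. Markers of other cell types summed to 604.3 to 821.6 and 436 to 475.9 units, most of it COL1A1, with 4 of 14 reaching the minimum for testing; HBB had no more than 0.9387 and DCN no more than 2.162 units in any library. Of the 4 tested markers of other cell types 1 rose and 3 fell. The myeloid marker LYZ rose from 6.405 ± 4.62 to 19.62 ± 2.52 units (n = 3 per group; limma adjusted p = 0.00227). COL1A1, COL3A1 and PDGFRB fell, COL3A1 from 41.05 ± 10.2 to 1.868 ± 0.937 units. Below the minimum for testing, the myeloid marker CD68 averaged 2.145 and 9.342 units, and CDH5 averaged 8.92 and 2.18. The part of these markers in the results was not tested. In bulk RNA a smaller number of expressing cells and less message per cell cannot be told apart.

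**Figure D1:**
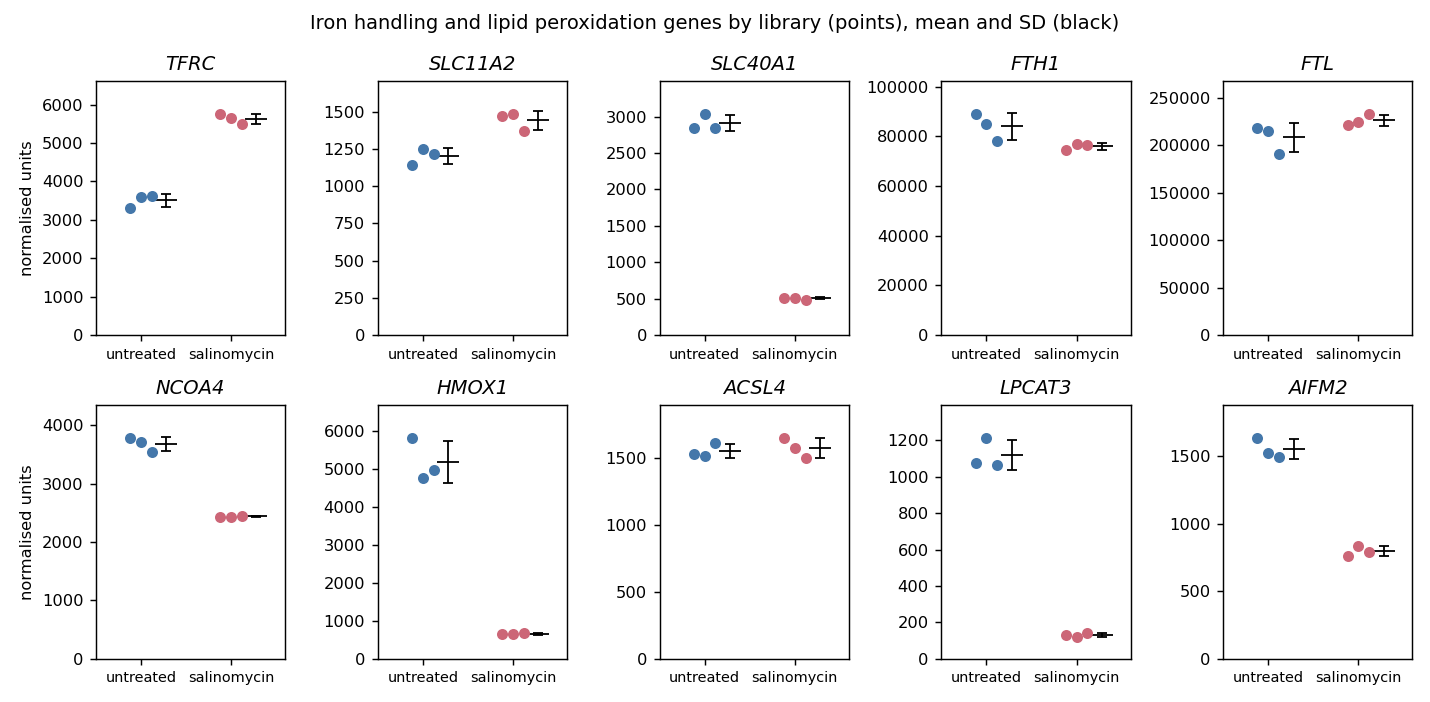
Normalised units (vertical axes, each from 0) of the 10 genes in the 3 untreated (blue) and 3 salinomycin (red) libraries, with the mean and SD in black. The groups lie apart by several-fold in the panels of SLC40A1, HMOX1 and LPCAT3, and ACSL4 has overlapping groups.

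TFRC (chromosome 3, 196027183 to 196082189, GRCh38) encodes the transferrin receptor, the main entry point for iron in dividing cells. It stood at 3317, 3601 and 3613 units in the untreated libraries and at 5749, 5656 and 5493 units with salinomycin. The lowest salinomycin library lay well above the highest untreated one. The rise was 1.61-fold (log2 change 0.68, SE 0.05; limma adjusted p = 9.25e-08), and 25.4% of all tested genes rose by as much. SLC11A2 (chromosome 12, 50979401 to 51028566) encodes the transporter that moves ferrous iron out of endosomes. Its values were 1142, 1246 and 1216 units untreated and 1474, 1483 and 1367 with salinomycin. The groups did not overlap, but the rise was small, 1.2-fold (log2 change 0.26, SE 0.058; limma adjusted p = 0.00114). As large a rise was found for 40.4% of all tested genes.

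SLC40A1 (chromosome 2, 189560579 to 189583758) encodes ferroportin, the known exporter of iron from cells. The untreated libraries held 2842, 3032 and 2843 units, and the salinomycin libraries 514.7, 508.2 and 487.2. No salinomycin library came near the lowest untreated one. The log2 change was -2.53 (SE 0.054; limma adjusted p = 3.54e-12), and 4.34% of all tested genes fell by as much. Within each library the ratio of TFRC to SLC40A1, in units per kb of transcript, was 0.786, 0.8 and 0.856 untreated and 7.52, 7.5 and 7.59 with salinomycin. This ratio does not depend on the scaling, and it moved 9.25-fold. The ratio of SLC11A2 to SLC40A1 moved 6.91-fold in the same direction, from 0.342 ± 0.011 to 2.37 ± 0.0469 (SD, n = 3 per group).

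FTH1 and FTL encode the heavy and light chains of ferritin, the hollow shell in which iron is stored; the heavy chain oxidises the iron that enters. FTH1 (chromosome 11, 61959718 to 61967660) had 88951, 85055 and 78303 units untreated and 74488, 76969 and 76595 with salinomycin. The untreated libraries spread more, and their lowest lay just above the highest salinomycin library. The log2 change was -0.14 (95% interval -0.29 to 0.003; limma adjusted p = 0.0644). It passed without untreated replicate 3 (-0.20; limma adjusted p = 0.00937), with upper-quartile scaling (-0.23) and with limma-voom on estimated reads (-0.14), and it was 0.05 with library size alone. FTL (chromosome 19, 48965301 to 48966878) had 218531, 215384 and 190681 units untreated and 221598, 224504 and 232605 with salinomycin. All salinomycin libraries were above all untreated ones, and untreated replicate 3 was the lowest. The log2 change was 0.12 (95% interval -0.06 to 0.30; limma adjusted p = 0.179), and it was 0.06 without untreated replicate 3 and 0.04 with upper-quartile scaling. With library size alone it was 0.31 and passed. In the authors' deposited table the FTL change is 0.32 with an adjusted p of 8.22e-07, and that of FTH1 is 0.05 with 0.446.

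The chains together made up 1.55% to 1.75% of all values in the untreated and 1.96% to 2.01% in the salinomycin libraries. These shares are not corrected for composition. Among all genes FTL ranked 2 untreated and 1 with salinomycin, and FTH1 ranked 10 and 5. Per kb of transcript the FTH1 level relative to FTL was 0.291, 0.282 and 0.293 untreated and 0.24, 0.245 and 0.235 with salinomycin. This scaling-free ratio was lower in each salinomycin library than in any untreated one, by 1.2-fold. GENCODE names 41 FTH1 and FTL pseudogenes, and how reads shared with them were counted is not given in the sources used here, so ferritin levels are uncertain to that extent. FTH1 also shares 1267 exonic bases with BEST1 on the opposite strand, which averaged 150.6 units untreated and 89.84 with salinomycin.

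NCOA4 (chromosome 10, 46005088 to 46030714) encodes the receptor that carries ferritin to autophagosomes, where its iron is freed. Its untreated values were 3783, 3714 and 3544 units, and with salinomycin they were 2434, 2433 and 2453. The salinomycin libraries were nearly equal and all lower. The log2 change was -0.59 (SE 0.047; limma adjusted p = 1.7e-07), and 27.9% of all tested genes fell by as much. Relative to FTH1 in the same library, NCOA4 fell 1.36-fold, from 0.0233 ± 0.000731 to 0.0171 ± 0.000286 per kb (SD, n = 3 per group). TFRC relative to FTH1 moved the other way, 1.77-fold upward.

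HMOX1 (chromosome 22, 35380361 to 35394214) encodes heme oxygenase 1, the inducible enzyme that opens heme and frees its iron. Like FTH1, FTL and SLC40A1 it is a known NRF2 target. HMOX1 stood at 5820, 4775 and 4969 units untreated and at 640.6, 647.9 and 674.9 with salinomycin. The gap between the groups was far wider than the spread within either, and untreated replicate 1 was the highest. The log2 change was -2.98 (SE 0.07; limma adjusted p = 6.88e-12), and 2.83% of all tested genes fell by as much. HMOX2, the gene of the constitutive isoenzyme, rose 1.68-fold from 787.1 ± 45.3 to 1322 ± 69.4 units (n = 3 per group). Per kb HMOX1 was thus 7.24 to 8.2 times the level of HMOX2 in untreated libraries and 0.571 to 0.606 times with salinomycin.

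LPCAT3 (chromosome 12, 6976186 to 7018510) encodes the lysophospholipid acyltransferase that places polyunsaturated fatty acids into membrane phospholipids. Its values were 1076, 1213 and 1066 units untreated and 130.5, 117.2 and 143.6 with salinomycin. The groups were far apart. The log2 change was -3.09 (SE 0.091; limma adjusted p = 3.44e-11), and 2.55% of all tested genes fell by as much. LPCAT3 shares 3100 exonic bases with EMG1 on the opposite strand, and EMG1 rose from 351.5 ± 16.5 to 1092 ± 25.8 units (n = 3 per group). Whether counting used strand is not given in the sources used here, and the part of EMG1 reads in LPCAT3 values was not tested.

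ACSL4 (X chromosome, 109624244 to 109733403) encodes the synthetase that activates arachidonic and adrenic acid for that step. It had 1529, 1517 and 1609 units untreated and 1651, 1576 and 1499 with salinomycin. The groups overlapped, with a log2 change of 0.02 (95% interval -0.10 to 0.14; limma adjusted p = 0.728). With library size alone the change was 0.21 and passed, and in the authors' deposited table it is 0.22 with an adjusted p of 0.00428. LPCAT3 relative to ACSL4, a ratio free of scaling, fell 8.66-fold from 1.7 ± 0.165 to 0.195 ± 0.0265 per kb (SD, n = 3 per group). ACSL4 relative to ACSL3, the gene of a synthetase known for activating monounsaturated fatty acids, fell 1.19-fold.

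AIFM2 (chromosome 10, 70098223 to 70132934) encodes ferroptosis suppressor protein 1, which regenerates reduced coenzyme Q at membranes. It stood at 1638, 1525 and 1496 units untreated and at 763.8, 834.4 and 795.1 with salinomycin. All salinomycin libraries were lower, with a log2 change of -0.96 (SE 0.059; limma adjusted p = 1.78e-08), and 19.3% of all tested genes fell by as much. GPX4, the gene of the glutathione-dependent enzyme that reduces lipid hydroperoxides, rose 2.01-fold from 2673 ± 217 to 5382 ± 489 units (n = 3 per group; limma adjusted p = 8.56e-08). A rise as large as that of GPX4 was found for 16.7% of all tested genes. The ratio of AIFM2 to GPX4 per kb was 0.16, 0.175 and 0.16 untreated and 0.0439, 0.0443 and 0.0382 with salinomycin, a 3.91-fold fall. AIFM2 and GPX4 thus changed in opposite directions, and their ratio was lower in each salinomycin library than in any untreated one.

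**Figure D2:**
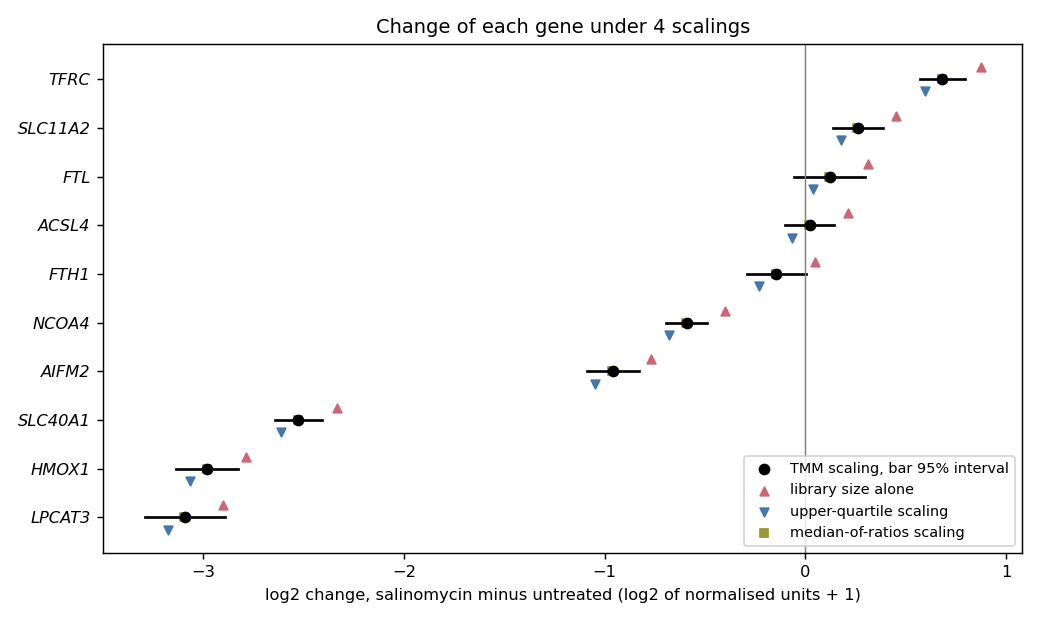
Log2 change of each gene (horizontal axis, salinomycin minus untreated) with TMM scaling and its 95% interval (black), and under 3 other scalings. TFRC and SLC11A2 stay right of 0 and NCOA4, AIFM2, SLC40A1, HMOX1 and LPCAT3 left of it under all 4, whereas FTH1 is at 0.05 with library size alone and ACSL4 at -0.065 with upper-quartile scaling.

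For all 9 ratios computed between genes of the same library the groups did not overlap. How often ratios of other gene pairs would also separate the groups was not computed. The two-sided exact permutation test over samples gave p = 0.1 for each (0.1 after Benjamini-Hochberg adjustment over the 9), the smallest p that 3 against 3 allows. For single genes, groups did not overlap for 9 of the 10 members and for 83% of all tested genes.

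**Figure D3:**
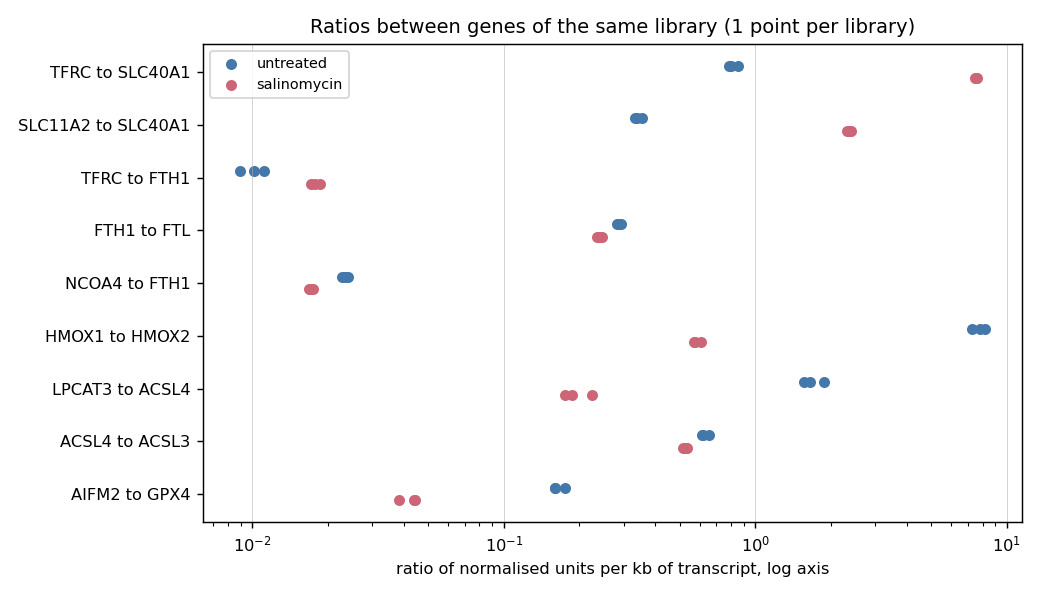
Ratio of 2 genes in the same library, in units per kb of transcript (log axis), for 3 untreated (blue) and 3 salinomycin (red) libraries. The widest gaps are in HMOX1 to HMOX2 (13.2-fold), TFRC to SLC40A1 (9.25-fold) and LPCAT3 to ACSL4 (8.66-fold).

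Ordered by level per kb of transcript, the untreated libraries had FTL highest (237128 ± 17371), then FTH1 (68432 ± 4384), HMOX1 (2848 ± 305), NCOA4 (1595 ± 53.3), SLC40A1 (844 ± 31.8) and TFRC (687 ± 32.8; SD, n = 3). LPCAT3 (493 ± 36.2) and AIFM2 (478 ± 23.1) were within their spread of each other, as were ACSL4 (291 ± 9.4) and SLC11A2 (288 ± 12.9). With salinomycin TFRC (1102 ± 25.3) stood at place 3 and NCOA4 (1058 ± 4.88) next to it. SLC40A1 (146 ± 4.18) went from place 5 to 9, and LPCAT3 (57.5 ± 5.83) was the lowest. HMOX1 (359 ± 9.93) came within the spread of SLC11A2 (346 ± 15.5).

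The wider pathways were described with 8 lists of other genes, 102 in all, of which 90 were tested. Rises were called for 34 and falls for 45, and 11 passed in neither direction; the median log2 change was -0.20. Of all tested genes 81.9% passed, 41.6% rising and 40.2% falling, so calls were common outside these lists too. In the lists together falls outnumbered rises, but with library size alone they were nearly even in number. The lean thus depends on the scaling, and it was not tested. The median of 10 genes of transferrin and iron uptake was -1.20, from 4 that rose and 6 that fell (3 rose with upper-quartile scaling). TFR2, the gene of the second transferrin receptor, rose from 14.28 ± 3.76 to 106.8 ± 4.99 units. It started from few reads, 37 estimated over the untreated libraries. SLC25A28, which encodes the mitochondrial importer mitoferrin 2, rose 2.53-fold from 431.8 ± 23.4 units. SCARA5, the gene of a scavenger receptor that can bind ferritin, fell from 268.3 ± 30.8 to 9.968 ± 4.45 units (n = 3 per group). TF, the gene of transferrin itself, had 55 estimated reads over the untreated and 3 over the salinomycin libraries, a 24.4-fold ratio once depth and composition were taken into account (95% counting interval 7.92 to 122). The fitted log2 change of TF depends on the pseudocount, -3.58 with 1 and -1.67 with 8.

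Of 7 genes of export and its control by the hormone hepcidin, 2 reached the minimum for testing, and both fell. Ceruloplasmin (CP), the copper enzyme that oxidises iron as ferroportin releases it, stood at 2350 ± 610 units untreated and 74.37 ± 15.7 with salinomycin, a 31-fold fall (SE 0.186 around a log2 change of -4.95; limma adjusted p = 2.3e-10). BMP6, which encodes the signal that induces hepcidin, fell 2.53-fold. CP and SLC40A1, whose products act together in export, were both lower in every salinomycin library.

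Both iron-regulatory protein genes rose by small amounts, and FBXL5 rose more. The 7 tested sensing and chaperone genes had a median of 0.16, with 4 higher and 1 lower; with library size alone 6 rose, and with upper-quartile scaling 3 rose and 1 fell. ACO1 rose by 0.16 on the log2 scale (limma adjusted p = 0.012), a call lost with upper-quartile scaling (0.08) and without salinomycin replicate 2 (0.13). IREB2 rose by 0.30 (limma adjusted p = 0.00169), from 1728 ± 173 to 2125 ± 86.9 units. FBXL5, the iron-sensing ubiquitin ligase subunit that marks iron-regulatory proteins for degradation, rose 1.9-fold. PCBP1, an iron chaperone for ferritin, rose 1.58-fold, and SKP1, the scaffold to which FBXL5 binds, fell by 0.36, or by 0.17 without passing under library size alone.

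Heme genes went both ways, 7 of 15 higher and 7 lower, with a median of -0.10, or 0.10 with library size alone. PPOX and UROD, enzymes of heme synthesis, rose 2.22 and 2.04-fold, whereas CPOX, of the same pathway, fell 3.29-fold. FLVCR2, a transporter gene related to the heme exporter, fell from 151.3 ± 8.54 to 15.89 ± 7.47 units. BACH1, which encodes the heme-sensing repressor of HMOX1, stood at 493.2 ± 33.6 and 461.9 ± 39 units and did not pass (limma adjusted p = 0.296; log2 change -0.10, or 0.10 with library size alone). The 13 iron-sulphur cluster genes were split into 6 that rose and 5 that fell (4 and 6 with upper-quartile scaling), and their median was 0.01 (-0.07). GLRX5 and CIAO1 rose 1.93 and 1.63-fold, and ISCA2 fell 1.53-fold.

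In phospholipid remodelling and polyunsaturated fatty acid synthesis 5 of 13 tested genes were higher and 5 lower, the median being -0.04 (0.15 with library size alone). The desaturase genes FADS1 and FADS2, which make polyunsaturated fatty acids from dietary precursors, rose 6.26 and 3.56-fold. FADS1 went from 5443 ± 25.3 to 34085 ± 979 units (n = 3 per group). LPCAT2, an acyltransferase gene of the same reaction class as LPCAT3, fell 3.41-fold, and the synthetase gene ACSL5 fell 3.09-fold from 45.34 ± 3.53 units. LPCAT3 thus fell while the desaturase genes that supply its substrates rose.

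Among 9 tested genes whose products start or promote lipid peroxidation the median was -0.70, from 2 that rose and 7 that fell; with library size alone 2 rose and 5 fell. ALOX12B and ALOXE3, lipoxygenases best known from the epidermis, rose from 14.99 ± 1.81 to 158.7 ± 12.3 and from 7.842 ± 3.41 to 96.53 ± 10.5 units. Both started from few reads, 39 and 20 over the untreated libraries. NOX1, the gene of an NADPH oxidase, fell from 168.4 ± 50.7 to 3.424 ± 1.43 units. PTGS2, which encodes cyclooxygenase 2 and is often used as a transcript marker of ferroptosis, fell 2.1-fold from 998.3 ± 57.9 units (limma adjusted p = 2.66e-07).

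The 21 tested genes of lipid peroxide defence had a median of -0.35, with 6 higher and 12 lower (11 lower with library size alone). The 6 higher genes were GPX4, PRDX6, PDSS2, SEC24A, CHAC1 and KEAP1. The last 2 encode proteins known to act against this defence, but the KEAP1 of A549 is mutated. CHAC1, the gene of a glutathione-degrading enzyme that is also used as such a marker, rose 8.88-fold from 83.55 ± 8.4 to 749.4 ± 72.9 units. SEC24A, a coat protein gene of vesicles leaving the endoplasmic reticulum, rose 3.77-fold. The quinone reductase gene NQO1 fell 7.12-fold from 36038 ± 1933 to 5055 ± 135 units, and the cystine transporter gene SLC7A11 fell 3.13-fold from 4089 ± 349 units. NFE2L2, which encodes NRF2, fell by 0.35 on the log2 scale, and KEAP1, the gene of its inhibitor, rose by 0.57 (limma adjusted p = 2.95e-05 and 1.17e-05). Whether the mutated KEAP1 product restrains NRF2 in these cells was not tested.

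**Figure D4:**
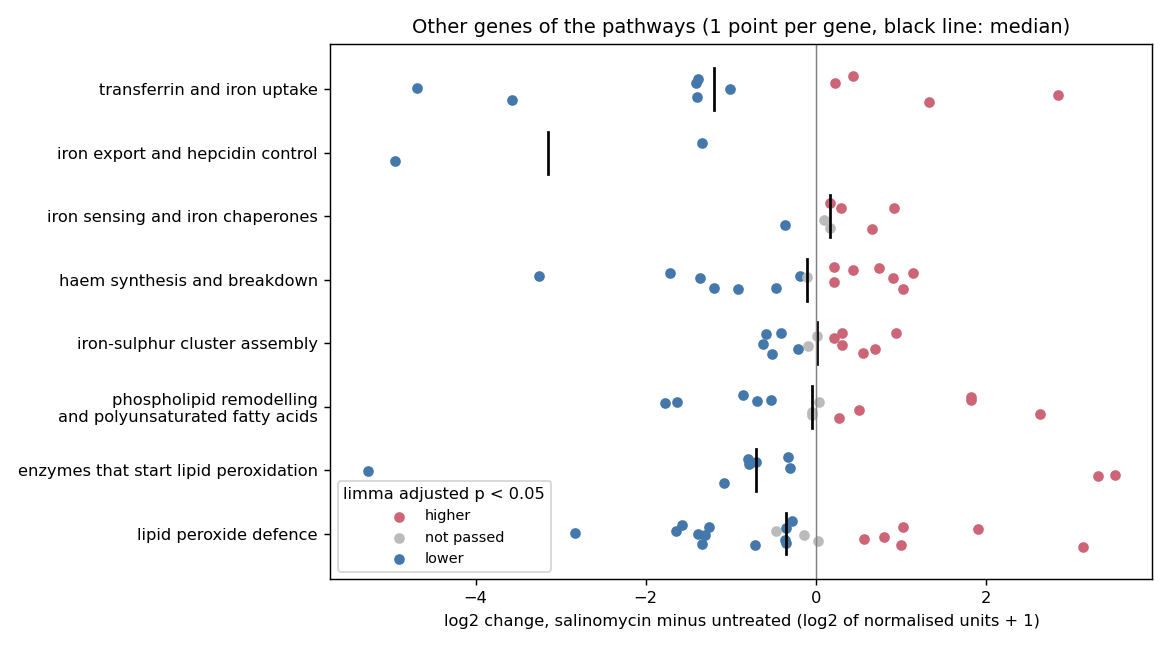
Log2 change (horizontal axis, salinomycin minus untreated) of the 90 tested genes of 8 pathway lists, 1 point per gene, with the median of each list as a black line. Points lie on both sides of 0 in every list except iron export, in which the 2 tested genes, CP and BMP6, fell.

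Genes with the hairpin core in a UTR were counted beside the members. Of 10 tested genes with a match in the 5′ UTR 5 rose and 2 fell, and of 64 with a match in the 3′ UTR 29 rose and 27 fell, with medians of 0.25 and 0.10. Of all tested genes 41.6% rose and 40.2% fell, so the 3′ UTR counts were near the background. Without the members 5 of 7 rose and 1 fell, and 28 of 63 rose and 27 fell. SLC40A1, FTH1 and FTL, which share the 5′ position, had changes of -2.53, -0.14 and 0.12.

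Promoter sequences from RefSeq (GRCh38.p14, 300 bases around each RefSeq start, which can differ from the GENCODE start) were matched for 8 of the 10 genes, with 12 promoters among them; the others were FTH1 and HMOX1. The core of the antioxidant response element bound by NRF2, TGACNNNGC, was searched on both strands. It was found in 2 of these 12 promoters, 1 each of NCOA4 and AIFM2, and in 13.3% of all 35116 promoters. The hypoxia response core ACGTG was found in 2 of the 12, 1 each of TFRC and FTL, and in 21.4% of all. The amino acid response core TGATGNAA was found in 1 of the 12, of SLC11A2, and in 3.62% of all. Such matches are letters in a window and show no binding. Elements outside the 300 bases were not searched, so a gene without a match here may still have one.

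In the authors' deposited table of gene set enrichment, 23 of 21624 sets had iron, heme, ferritin, transferrin or ferroptosis in their names. Of these, 4 had a positive and 1 a negative normalised enrichment score at an adjusted p under 0.05, together 21.7% of them, against 17.8% of all sets in either direction. In the authors' deposited table the WikiPathways ferroptosis set had a score of -1.41 (adjusted p = 0.133), and the set for the response to iron ion had -1.70 (adjusted p = 0.052). In the authors' deposited table the highest of the 23 scores, 2.07, belonged to the response of the kinase EIF2AK1 to heme deficiency (adjusted p = 0.000181). The 1 negative set that passed there was that of oxidoreductases acting on heme groups, with -1.87 (adjusted p = 0.0246). These sets were taken by name alone. Which of their genes drove a score was not examined, so a score does not show the heme or iron state of the cells.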

How the data were processed

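RNA-seq values of 6 libraries were compared, 3 per group, by limma 3.58.1 in R 4.3.3. The submitters' processing notes name GRCh38 as the build; for the aligner, counter and annotation nothing is given in the sources used here. Deposited signal values were whole numbers rescaled by the authors, with totals within 0.692% of each other and a lowest value of 1. The same deposited table holds log10 means, the authors' log2 fold changes, their linear fold as a ratio, a test score and p-values; the deposited enrichment table holds scores and p-values, per the file headers.

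From each value 1 was subtracted, and the result was divided by trimmed-mean (TMM) factors of 0.9262 to 0.9433 (untreated) and 1.0618 to 1.0795 (salinomycin), which trim 30% of log ratios and 5% of levels, times relative library size. The log2 of units plus 1 was fitted with a trend of variance on mean, and p-values were adjusted (Benjamini-Hochberg) over the 13088 genes with 10 or more in at least 3 libraries. Reads were estimated from rounding steps by library factors of 0.831 to 1.2035, so they carry an error of their own. The counting interval given for the TF ratio of estimated reads covers counting error only. Intervals given for log2 changes come from the limma fit and its standard errors. Between libraries of the same group chi-square per gene was 2.86 to 6.74, above sampling noise, so all 6 were kept as separate. Levels per kb use 1 GENCODE release 29 transcript per gene.

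The 10 genes, the lists and the ratios were chosen with earlier results of these data known. Named pathway genes were the 2 largest rises and 2 largest falls past the threshold in each list, plus GPX4, ACO1, IREB2, FBXL5, SLC7A11, BACH1, NFE2L2 and KEAP1, which with the 10 gave 45 genes, of which 1 is not reported here; HMOX2, ACSL3, EMG1 and COL1A1 were named besides. Alternatives were other scalings, filters, pseudocounts and tests, a replicate block and leaving out each library. The fit was also run on simulated data in which few genes changed and the scaling factors were known. That run cannot test the choice of scaling.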

Additional observations from a re-analysis of the deposited data

How the results depend on the processing

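The 7 called members kept their direction and call under every alternative run. Scaling by library size alone raised the members called higher from 2 to 4 (FTL and ACSL4 added). FTH1 turned to 0.047 with library size alone, and BACH1 to 0.10. ACSL4 turned to -0.065 with upper-quartile scaling and to -0.013 without salinomycin replicate 1 (-0.013 to 0.056 over the libraries left out). The cause was not tested. Leaving out each library in turn gave 2 members higher and 5 to 6 lower, and 5214 to 5387 genes higher and 5037 to 5138 lower over all genes. Of the alternative values for the other named genes 554 had the same direction and call, 3 (ACO1 and SKP1) lost the call and 1 (BACH1) turned. With a pseudocount of 8 the log2 change was -1.67 for TF, -3.97 for SCARA5, 2.74 for ALOXE3 and -3.91 for NOX1, against -3.58, -4.69, 3.52 and -5.27. With the replicate number as a block 5325 genes were higher and 5130 lower, and 2 and 5 members. Same-numbered libraries deviated from their group means with correlations of -0.17, -0.01 and -0.03, and differently numbered ones with -0.15 to 0.19. No shared deviation by replicate number was thus seen. Whether the samples were paired by design cannot be told from this, because paired samples need not share deviations. The 9 ratios kept their direction throughout, and with 3 against 3 no ratio can pass.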
